A study of Homo sapiens with 12 samples.

Results

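The Hedgehog pathway's ligands, surface proteins, signal transducer and transcription factors were followed in docetaxel-resistant prostate cancer cells through 10 genes: SHH, IHH, HHIP, GAS1, PTCH1, SMO, SUFU, GLI1, GLI2 and GLI3. They are given by name, with no threshold on their values. Every probe set that the array annotation assigns to one of them was taken, which gave 12 probe sets of 8 genes, out of 19033 probe sets of 11939 genes, on the array type used for 8 arrays. On the larger array type used for 4 arrays there were 28 probe sets of all 10 genes, out of 41032 probe sets of 19740 genes. SUFU and HHIP were measured on the larger type alone.

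In Hedgehog signalling a secreted ligand binds the receptor PTCH1, which otherwise holds the membrane protein SMO inactive. Active SMO moves into the primary cilium and releases the GLI transcription factors from SUFU, so that GLI1 and GLI2 can activate genes while less of GLI3 is processed to a repressor. PTCH1, HHIP and GLI1 are themselves textbook targets of the pathway, and in the developing prostate the ligand comes from the epithelium and acts on the surrounding mesenchyme.

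The 12 samples fall into 4 groups of 3: DU145-DR, docetaxel-resistant cells selected from the prostate cancer line DU145, against parental DU145, and 22Rv1-DR, docetaxel-resistant cells selected from the prostate cancer line 22Rv1, against parental 22Rv1. The resistant cells were grown in docetaxel, a drug that stabilises microtubules, and the parental cells without it, so acquired resistance and the presence of the drug cannot be told apart. The published study asked, among other things, about Notch and Hedgehog signalling in resistant cells. The sources used here do not say whether a resistant line is 1 clone or replicates were separate cultures, so p-values measure the spread between arrays, which may be technical.

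Replicates 1 and 2 were on the smaller array type and replicate 3 of each group on the larger one. The array floor, taken as an array's 5th percentile, was an intensity of 35.8 to 38.6 on the DU145-DR and DU145 arrays of the smaller type, 11.5 to 12.3 on the 22Rv1-DR and 22Rv1 arrays of that type and 10.9 to 11.0 on the larger type. Intensities are therefore not compared between lines, between array types or between probe sets. The epithelial markers KRT8, KRT18 and EPCAM were over the array median on both smaller arrays of every group. Of 5 listed luminal prostate markers 3 matched the annotation (KLK2, KLK3 and HOXB13); all 3 were over the median in 22Rv1-DR and 22Rv1, and 0 of 3 in DU145-DR and DU145. None of 3 leukocyte and 3 endothelial markers was over the median on both arrays of any group.

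Most of the Hedgehog probe sets stayed under the array median on the smaller type, and 15 of 28 did on the larger. On the smaller type only PTCH1 209815_at was over the array median on all 8 arrays, 10 of the 12 were over it on no array, and 2 were under the 25th percentile on every array. On the larger type 7 of 28 were over the median on all 4 arrays, 12 were over the 40th percentile on all 4, 13 were over the 40th percentile on none and 6 were under the 25th percentile on all. In a bulk sample, fewer cells expressing a gene and less of its RNA per cell cannot be told apart.

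**Figure D1:**
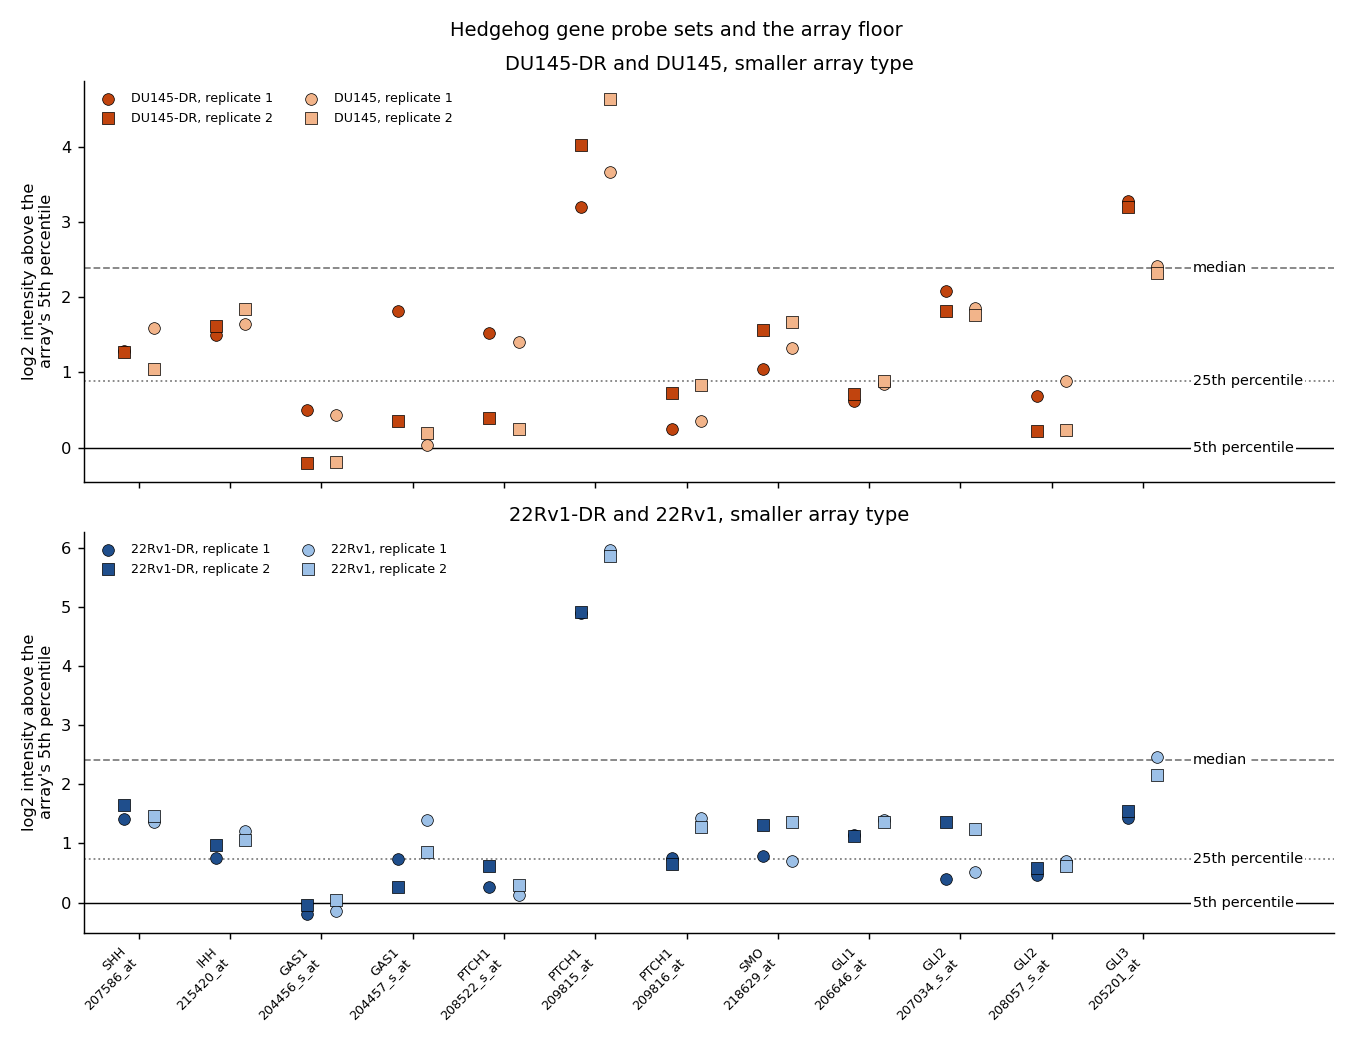
Each point is 1 array of the smaller type, with the resistant group left of its parental group; the y axis is the log2 intensity above that array's 5th percentile, and lines mark the 25th percentile and the median. PTCH1 209815_at was over the median on all 8 arrays and GLI3 205201_at on 4 (both DU145-DR arrays and replicate 1 of DU145 and of 22Rv1). Both GAS1 probe sets, PTCH1 208522_s_at and 209816_at, and GLI2 208057_s_at had arrays near the floor.

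Between DU145-DR and DU145, 1 of the 12 probe sets was called higher and 0 lower, at a background of 6.87% of all 19033 probe sets called in either direction. The called probe set was that of GLI3. Between 22Rv1-DR and 22Rv1, 0 of 12 were called, 2 had an unadjusted p under 0.05, and the background was 3.22%. In the difference of the changes between the lines, 1 of 12 was called, GLI3 again, at a background of 4.82%. Calls rest on limma's moderated test on log2 of the intensity plus 16, with Benjamini-Hochberg adjustment over all probe sets and a threshold of 0.05. The median change of the 12 was -0.08 in DU145-DR against DU145, where that of all probe sets was -0.01, and -0.13 in 22Rv1-DR against 22Rv1, where that of all was 0.00031. Changes were below 0 for 7 of 12 in DU145-DR (53.0% of all probe sets) and for 10 of 12 in 22Rv1-DR (49.5% of all).

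Replicate numbers paired the arrays within a line, and a fit with each line and replicate number as a block gave more calls across the arrays as a whole. In that fit 1 of 12 was higher (GLI3) and 1 lower (PTCH1 209815_at) in DU145-DR, at a background of 25.1%. In 22Rv1-DR 3 of 12 were lower (PTCH1 209815_at and 209816_at, and GLI3), at a background of 16%, and in the difference of the changes 2 of 12 were lower (GLI3 and PTCH1 209815_at), at a background of 22.7%. With the 4 arrays of replicate 3 added to the blocked fit, 1 of 12 was called in DU145-DR (GLI3, higher) at a background of 20.9%. In the same fit 1 of 12 was called in 22Rv1-DR (PTCH1 209815_at, lower) at a background of 6.35%, and 2 of 12 in the difference (the same probe sets of GLI3 and PTCH1) at a background of 13.9%.

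**Figure D2:**
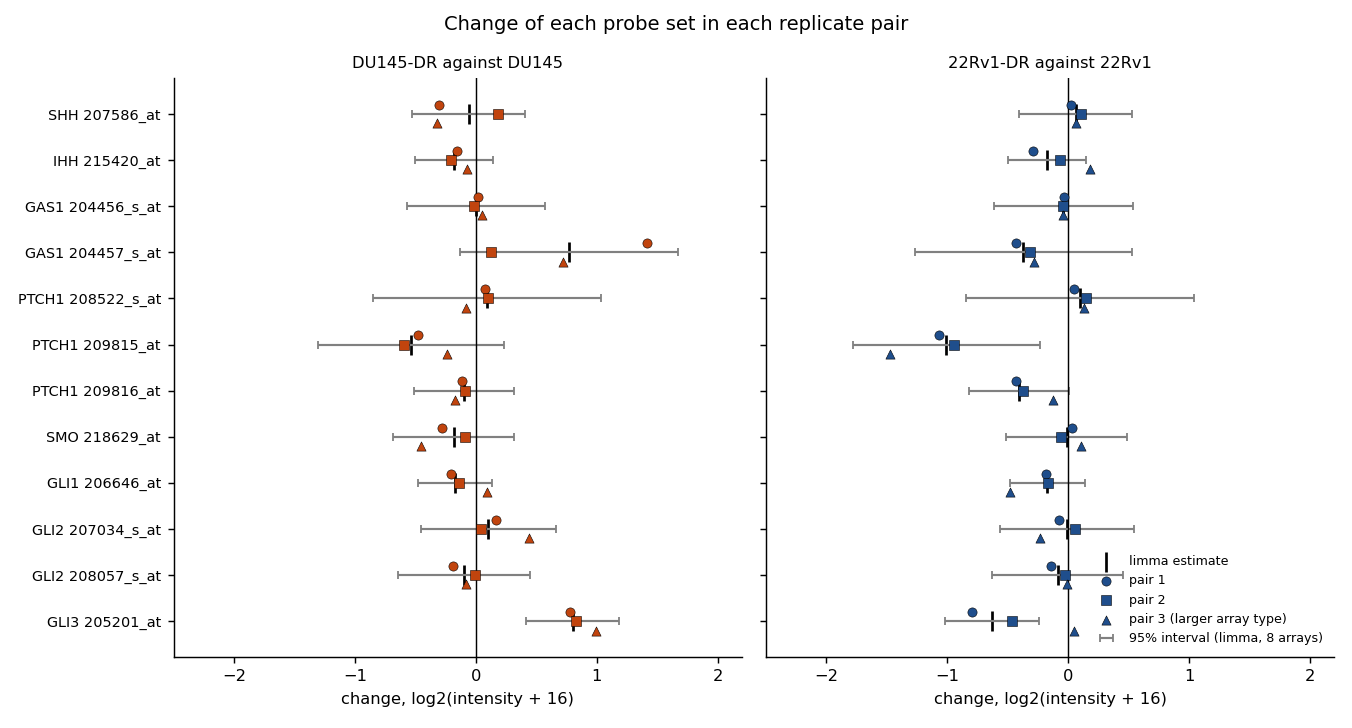
The x axis is the resistant minus parental change in log2(intensity + 16) for each probe set on both array types; symbols are the replicate pairs, the black bar is the limma estimate from 8 arrays and the whiskers its 95% interval. GLI3 205201_at lies above 0 in all 3 DU145 pairs, and PTCH1 209815_at lies below 0 in all 3 pairs of both lines, farther in 22Rv1 (-1.07, -0.95 and -1.47).

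The ligands were under the array median on all 8 smaller arrays and at the percentiles 41.1 to 55.4 of the larger ones. SHH, the Sonic hedgehog ligand, had intensities of 91.1 and 86.2 in DU145-DR replicates 1 and 2, against 116 and 74.0 in DU145, on 207586_at. The same probe set gave 32.2 and 36.0 in 22Rv1-DR, against 31.6 and 32.4 in 22Rv1, with all 8 arrays between the percentiles 30.3 and 41.5 of their array. Groups overlapped in both lines. The change was -0.06 ± 0.20 (SE; 95% interval -0.53 to 0.41, limma adjusted p = 1) in DU145-DR and 0.06 ± 0.20 (-0.41 to 0.53) in 22Rv1-DR. The third replicate gave 36.0 in DU145-DR against 49.2 in DU145, and 48.2 in 22Rv1-DR against 45.3 in 22Rv1, at the percentiles 49.1 to 55.4 of the larger arrays. A second SHH probe set, 236263_at, differed little on the larger type, with 41.6 in DU145-DR against 45.3 in DU145 and 43.1 in 22Rv1-DR against 41.6 in 22Rv1, and stood at the percentiles 52.1 to 53.1.

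IHH, the Indian hedgehog ligand, had intensities of 106 and 109 in DU145-DR, against 120 and 128 in DU145, on 215420_at. It had 20.4 and 22.6 in 22Rv1-DR, against 28.4 and 24.4 in 22Rv1. Replicates 1 and 2 were lower in the resistant group without overlap in both lines, but neither change passed: -0.18 ± 0.14 in DU145-DR (95% interval -0.50 to 0.14, limma adjusted p = 0.664) and -0.18 ± 0.14 in 22Rv1-DR (-0.50 to 0.14, adjusted p = 0.855). On the larger type the same probe set gave 27.5 in DU145-DR against 29.9 in DU145, and 32.4 in 22Rv1-DR against 26.7 in 22Rv1, so the third 22Rv1 pair had the other sign. The larger type's own IHH probe set, 229358_at, showed the same split by line, with 33.8 in DU145-DR against 41.6 in DU145 and 46.2 in 22Rv1-DR against 34.8 in 22Rv1, at the percentiles 47.7 to 54.5.

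HHIP, a membrane-bound decoy that binds the ligands and is induced by the pathway, was at the floor. Its 4 probe sets on the larger type read between 9.85 and 14.7, at the percentiles 2.01 to 19.0 of their arrays, and were under the 25th percentile on all 4 arrays. Differences were -0.07 to 0.17 for DU145-DR minus DU145 and -0.09 to 0.0038 for 22Rv1-DR minus 22Rv1, with 1 array a group and no test.

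GAS1, a surface co-receptor that helps ligands bind PTCH1, was higher in all 3 DU145-DR replicates and lower in all 3 22Rv1-DR replicates on 1 of its 3 probe sets, and neither change passed the test. On 204457_s_at it had intensities of 132 and 45.9 in DU145-DR, against 39.4 and 40.8 in DU145, and the third replicate gave 36.8 in DU145-DR against 16.1 in DU145. It had 20.0 and 13.8 in 22Rv1-DR, against 32.4 and 21.1 in 22Rv1, with 13.4 against 19.8 in the third replicate. Both DU145-DR arrays were above both DU145 arrays, 1 of them far above, and both 22Rv1-DR arrays were below both 22Rv1 arrays. On the smaller type the DU145-DR arrays stood at the percentiles 41.1 and 13.7 and the DU145 arrays at 5.53 and 9.33. The 22Rv1-DR arrays stood at 25.2 and 11.5 and the 22Rv1 arrays at 38.3 and 27.7. The change was 0.77 ± 0.38 in DU145-DR (95% interval -0.13 to 1.67, limma adjusted p = 0.363), over pairs of 1.41, 0.12 and 0.72. It was -0.37 ± 0.38 in 22Rv1-DR (adjusted p = 1), over pairs of -0.43, -0.32 and -0.29. The DU145-DR value rests on replicate 1: without DU145-DR replicate 1 it was 0.14 (adjusted p = 0.816), and without DU145-DR replicate 2 it was 1.40 (0.0151). The other GAS1 probe sets did not move alike. On 204456_s_at the intensities were 53.1 and 30.9 in DU145-DR against 52.3 and 31.3 in DU145, and 10.5 and 11.2 in 22Rv1-DR against 11.2 and 12.04 in 22Rv1, all under the 25th percentile. On the larger type's 228187_at GAS1 read 21.4 in DU145-DR against 24.8 in DU145, and 23.1 in 22Rv1-DR against 22.8 in 22Rv1.

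PTCH1, the ligand receptor, is shown with promoter windows because it is a known GLI target. It was also the only one of the 8 genes on the smaller type with a probe set over the median on all 8 arrays. RefSeq promoter windows of 250 bases (GRCh38.p14) were found for 8 of the 10 genes, 13 windows in all and 5 of them of PTCH1. They were searched on both strands for GACCACCCA, the GLI consensus. That motif lies in 70 of 35116 windows of all genes (0.199%) and in 1 of the 13, a PTCH1 window on the minus strand at chr9:95509267-95509516. There the match begins 172 bases before the start site and lies on the opposite strand, so it reads TGGGTGGTC, in capitals below. The second window, chr9:95516972-95517221, belongs to another PTCH1 start, is also on the minus strand and holds no match. A match of letters is not a measured binding site.
PTCH1 chr9:95509267-95509516: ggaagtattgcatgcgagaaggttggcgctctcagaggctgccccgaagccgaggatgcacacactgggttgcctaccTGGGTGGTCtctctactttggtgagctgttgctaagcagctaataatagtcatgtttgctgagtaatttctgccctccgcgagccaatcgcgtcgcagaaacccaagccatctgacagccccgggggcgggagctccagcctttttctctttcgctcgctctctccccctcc
PTCH1 chr9:95516972-95517221: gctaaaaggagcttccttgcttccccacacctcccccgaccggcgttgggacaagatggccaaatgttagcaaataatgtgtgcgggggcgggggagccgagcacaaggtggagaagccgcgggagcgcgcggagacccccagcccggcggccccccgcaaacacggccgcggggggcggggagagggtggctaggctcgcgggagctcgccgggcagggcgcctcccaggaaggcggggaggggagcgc

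PTCH1 was lower in 22Rv1-DR than in 22Rv1 in every replicate of 209815_at. There it had intensities of 357 and 345 in 22Rv1-DR, against 765 and 680 in 22Rv1, and 254 against 734 in the third replicate. The groups did not overlap on the smaller type, and the larger type had 1 array a group. The change was -1.01 ± 0.33 (95% interval -1.78 to -0.24), a 2.01-fold lower level, over pairs of -1.07, -0.95 and -1.47. It did not pass in the unblocked fit (limma adjusted p = 0.205) and passed with the replicate block (0.00324) and with the block over 12 arrays (-1.16 ± 0.12, adjusted p = 0.00659). It also passed when only the 4 arrays of the line were fitted (0.0186), and in 4 of 22 alternatives in all. Over 12 arrays with the table as a block it did not pass.

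In DU145-DR the same probe set had intensities of 345 and 580, against 488 and 885 in DU145, with 282 against 335 in the third replicate. Within every pair the DU145-DR array was the lower one, but replicate 2 was brighter than replicate 1 in both groups and the groups overlapped. The change was -0.54 ± 0.33 (95% interval -1.31 to 0.23, limma adjusted p = 0.505), over pairs of -0.48, -0.60 and -0.24. With the replicate block the SE was 0.08 and the adjusted p 0.0107, and over 12 arrays with the block the change was -0.44 ± 0.12 (0.0545). This probe set stood at the percentiles 60.9 to 75.6 on the DU145-DR and DU145 arrays, 75.9 to 87.3 on the 22Rv1-DR and 22Rv1 arrays and 79.0 to 90.4 on the larger type.

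The other PTCH1 probe sets stood lower on their arrays, and all but 238754_at were under the array median on every array. On 209816_at PTCH1 had 20.4 and 18.1 in 22Rv1-DR, against 33.1 and 28.2 in 22Rv1, without overlap, and 17.4 against 20.5 in the third replicate. That change was -0.40 ± 0.17 (95% interval -0.82 to 0.0097, limma adjusted p = 0.394), with a blocked adjusted p of 0.0239, and of 0.0808 over 12 arrays with the block. In DU145-DR it had 44.6 and 58.9, against 49.5 and 63.6 in DU145, with 20.8 against 25.5 in the third replicate, a change of -0.10 ± 0.17 (-0.51 to 0.31). The pairs in both lines had the sign of those on 209815_at, but 209816_at was nearer the floor. It stood at the percentiles 9.87 to 25.6 on the smaller DU145-DR and DU145 arrays. On the smaller 22Rv1-DR and 22Rv1 arrays it stood at 22.5 to 38.8. On 208522_s_at the intensities were 108 and 46.9 in DU145-DR against 102 and 42.5 in DU145, and 14.4 and 17.6 in 22Rv1-DR against 13.5 and 14.4 in 22Rv1, with changes of 0.09 ± 0.40 and 0.10 ± 0.40. On the larger type 1555520_at of PTCH1 had 22.6 in DU145-DR against 19.7 in DU145, and 15.6 in 22Rv1-DR against 20.0 in 22Rv1. The remaining one, 238754_at, had 37.5 in DU145-DR against 42.2 in DU145, and 56.1 in 22Rv1-DR against 43.4 in 22Rv1, so in the third 22Rv1 pair it was higher where 209815_at was lower. Beside these values, 1 of 6 stromal marker genes rose in 22Rv1-DR and 5 did not pass. It was DCN, which codes for a matrix proteoglycan, on 201893_x_at (1.78 ± 0.17, limma adjusted p = 0.00257) and 211813_x_at (0.93 ± 0.15, 0.0204). The DCN probe sets 211896_s_at (0.95 ± 0.29, adjusted p = 0.177) and 209335_at (0.05 ± 0.20) did not pass. The 6 stromal markers summed to 333 to 339 in 22Rv1-DR and 278 to 291 in 22Rv1, with 2 of 6 over the median in each, and the median change of their 18 probe sets was 0.04. In the sum, DCN had 85.6 to 86.8 in 22Rv1-DR against 36.3 to 38.9 in 22Rv1, and COL1A1 57.7 to 82.1 against 80.4 to 98.4. Of the luminal markers, none passed in 22Rv1-DR in the unblocked fit. With the replicate block, under which PTCH1 209815_at also passed, KLK2 was higher while KLK3 and HOXB13 were lower. KLK3 had 146 to 226 in 22Rv1-DR against 269 to 391 in 22Rv1 (limma blocked adjusted p = 0.0105), and HOXB13 had 217 to 267 against 338 to 481 (0.0109). The part of these marker changes in the PTCH1 values was not tested.

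**Figure D3:**
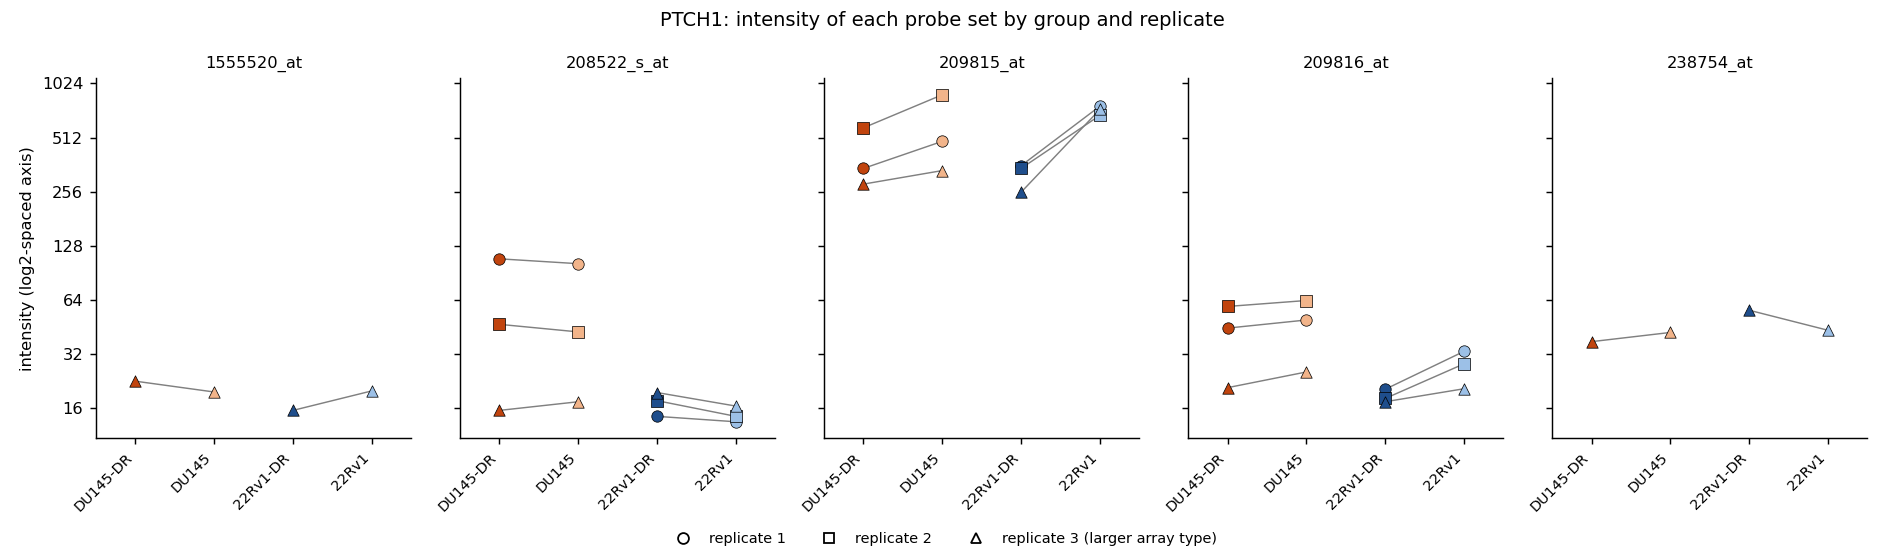
Intensity of the 5 PTCH1 probe sets on a log2-spaced axis, by group, with lines joining the arrays of 1 replicate number; triangles are replicate 3 on the larger array type. On 209815_at the 22Rv1-DR arrays read 357, 345 and 254, all below the 22Rv1 arrays at 765, 680 and 734.

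SMO, the membrane protein that PTCH1 inhibits, had 1 probe set, 218629_at, which stood at the percentiles 24.5 to 41.0 on the smaller arrays and 57.3 to 63.5 on the larger ones. It had 77.2 and 106 in DU145-DR, against 97.0 and 114 in DU145, and 54.6 against 80.4 in the third replicate. It had 20.8 and 28.4 in 22Rv1-DR, against 20.0 and 30.3 in 22Rv1, and 60.5 against 55.3 in the third replicate. Each DU145-DR array was below the DU145 array of its number, with overlapping groups, and the 22Rv1-DR arrays lay among the 22Rv1 ones. The changes were -0.18 ± 0.21 in DU145-DR (95% interval -0.68 to 0.32, limma adjusted p = 0.906) and -0.01 ± 0.21 in 22Rv1-DR (-0.51 to 0.49).

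SUFU, which holds GLI proteins in the cytoplasm, had 1 well-measured probe set of 4 on the larger type. On 222749_at, at the percentiles 65.6 to 69.7, SUFU had 108 in DU145-DR against 122 in DU145, a difference of -0.15, and 103 in 22Rv1-DR against 91.8 in 22Rv1, a difference of 0.14. On 224203_at SUFU had 35.3 in DU145-DR against 40.8 in DU145, and 43.4 in 22Rv1-DR against 44.3 in 22Rv1. On 224201_s_at it had 16 in DU145-DR against 21.9 in DU145, and 17.6 in 22Rv1-DR against 21.9 in 22Rv1. The fourth, 224202_at, read 13.9 to 15.6 on the 4 arrays. None of the 4 differed by 1 log2 unit in either line.

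GLI1, the activator whose own transcription the pathway induces, was under the 40th percentile on all 8 smaller arrays and at the percentiles 44.0 to 55.1 on the larger ones. On 206646_at it had 57.7 and 58.5 in DU145-DR, against 69.1 and 66.3 in DU145. It had 26.5 and 25.1 in 22Rv1-DR, against 32.2 and 30.1 in 22Rv1. Replicates 1 and 2 were lower in the resistant group without overlap in both lines, at the percentiles 18.1 to 38.2. The changes were -0.18 ± 0.13 in DU145-DR (95% interval -0.48 to 0.13, limma adjusted p = 0.649) and -0.17 ± 0.13 in 22Rv1-DR (-0.48 to 0.13, adjusted p = 0.836). The third replicate had 40.8 in DU145-DR against 37.3 in DU145, a difference of 0.09, and 29.9 in 22Rv1-DR against 48.2 in 22Rv1, a difference of -0.48.

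GLI2, the factor regarded as the main activator downstream of SMO, had 159 and 125 in DU145-DR, against 140 and 121 in DU145, on 207034_s_at. The third replicate gave 90.5 against 62.7, a difference of 0.44, and all pairs were above 0 although the groups overlapped. The change was 0.10 ± 0.23 (95% interval -0.45 to 0.66, limma adjusted p = 1). In 22Rv1-DR this GLI2 probe set had 15.8 and 29.4, against 17.5 and 27.9 in 22Rv1, with 14.4 against 19.7 in the third replicate, and the change was -0.01 ± 0.23. The GLI2 probe set found only on the larger type, 228537_at, read 128 in DU145-DR against 125 in DU145, and 41.1 in 22Rv1-DR against 44.6 in 22Rv1. The third, 208057_s_at, was near the floor, with changes of -0.10 ± 0.23 in DU145-DR and -0.09 ± 0.23 in 22Rv1-DR.

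GLI3, the family member that mainly acts as a repressor when the ligand is absent, rose in DU145-DR. On 205201_at it had intensities of 365 and 329 in DU145-DR, against 207 and 179 in DU145, and 152 against 68.6 in the third replicate. All DU145-DR arrays were above the DU145 arrays of their type, at the percentiles 61.8 and 59.3 in DU145-DR and 50.2 and 49.2 in DU145 for replicates 1 and 2. The change was 0.80 ± 0.16 (95% interval 0.41 to 1.19), 1.74-fold, with a limma adjusted p of 0.0343 and pairs of 0.77, 0.82 and 0.99. With the replicate block the adjusted p was 0.00820, and over 12 arrays with the block the change was 0.86 ± 0.16 (0.0143). Over 12 arrays with the table as a block the GLI3 change was not called. Nor was it with a pseudocount of 1, with the 4 arrays of the line only or with an intensity trend. The call stood close to the threshold: it was lost when any 1 of 7 of the 8 arrays was left out (adjusted p 0.0665 to 0.142) and kept without DU145-DR replicate 2 (0.0475).

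The GLI3 probe sets found only on the larger type pointed the same way in the DU145 pair. On 227376_at GLI3 had 149 in DU145-DR against 24.8 in DU145, a difference of 2.02, from the percentiles 71.6 and 37.4. On 1569342_at it had 22.0 in DU145-DR against 12.6 in DU145, a difference of 0.41, from the percentiles 35.6 and 10.0. Both rest on 1 array a group and have no test. Beside the GLI3 rise, the epithelial markers EPCAM (-2.36 ± 0.19, limma adjusted p = 0.00126) and KRT18 (-1.01 ± 0.20, adjusted p = 0.0289) fell in DU145-DR, and KRT8 did not pass (0.11 ± 0.16, adjusted p = 0.980), with 2759 to 3397 in DU145-DR against 2702 to 2978 in DU145. The 3 epithelial markers summed to 8343 to 8496 in DU145-DR and 13785 to 16546 in DU145, and the 6 stromal markers to 842 to 1148 in DU145-DR and 856 to 1214 in DU145. The part of these shifts in the GLI3 result was not tested.

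In 22Rv1-DR the probe set 205201_at of GLI3 had 32.4 and 33.6, against 68.1 and 52.3 in 22Rv1, without overlap. The third replicate had 56.1 in 22Rv1-DR against 53.8 in 22Rv1, a difference of 0.05, so the lower level in pairs 1 and 2 (-0.80 and -0.46) did not recur there. The change was -0.63 ± 0.16 (95% interval -1.02 to -0.24), and the limma adjusted p was 0.116 without the block and 0.0212 with it. Over 12 arrays with the block it was -0.40, with an adjusted p of 0.222. The larger type's own GLI3 probe sets were low in both groups: 227376_at had 21.1 in 22Rv1-DR against 22.6 in 22Rv1, and 1569342_at had 13.5 against 13.0.

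**Figure D4:**
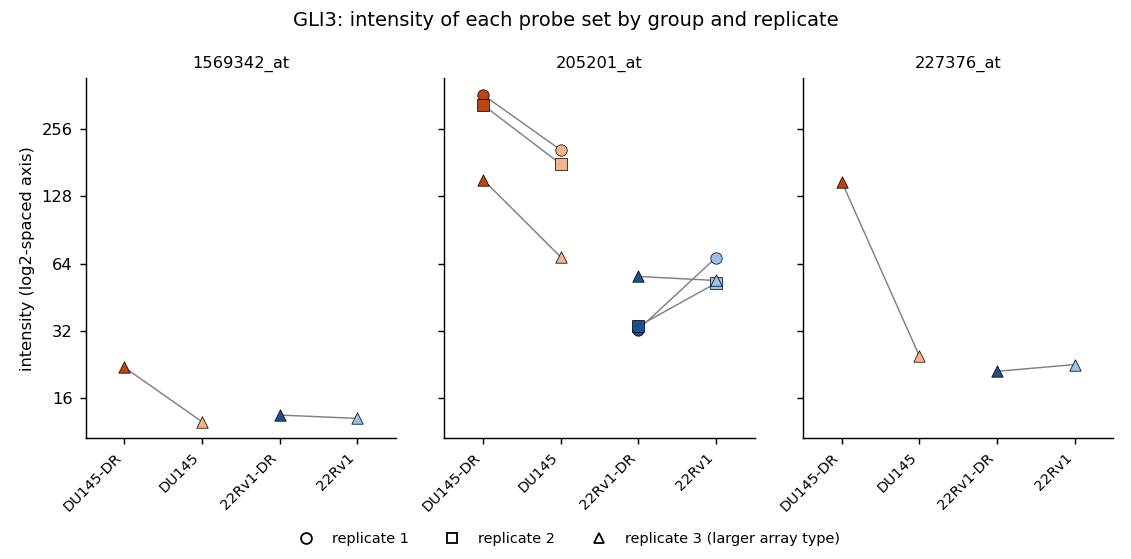
Intensity of the 3 GLI3 probe sets on a log2-spaced axis, by group, with lines joining the arrays of 1 replicate number; triangles are replicate 3 on the larger array type. Each DU145-DR point lies above its DU145 partner on all 3 probe sets, and 205201_at lies below 22Rv1 in 2 of the 3 22Rv1-DR replicates.

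The lines differed in the change of GLI3 in the unblocked fit. The change in 22Rv1-DR minus that in DU145-DR was -1.43 ± 0.23 on 205201_at (95% interval -1.98 to -0.88, limma adjusted p = 0.0194), with a blocked adjusted p of 0.00567. Over 12 arrays with the block it was -1.27 ± 0.22 (0.0182), and over 12 arrays with the table as a block it was not called. The call was lost without DU145 replicate 2 (0.0633), without either 22Rv1-DR array (0.0959 and 0.0905) or without either 22Rv1 array (0.104 and 0.0578). For PTCH1 209815_at the same difference was -0.47 ± 0.46 (adjusted p = 0.848), with a blocked adjusted p of 0.0421, and -0.72 ± 0.17 (0.0450) over 12 arrays with the block. For GAS1 204457_s_at the difference was -1.14 ± 0.54 (95% interval -2.41 to 0.13, adjusted p = 0.366). The array floors of the lines differ on the smaller type, and their part in these differences was not tested.

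In the third pair alone, 1 of the 28 probe sets in each line was past a 1 log2 difference, at a background of 11.5% of all probe sets for DU145-DR minus DU145 and 4.15% for 22Rv1-DR minus 22Rv1. They were GLI3 227376_at (2.02) in DU145-DR and PTCH1 209815_at (-1.47) in 22Rv1-DR. The median of the 28 was -0.08 in the DU145 pair and -0.02 in the 22Rv1 pair, where all probe sets had -0.02 and 0.02. Differences were below 0 for 16 of 28 in each pair (53.4% and 44.2% of all probe sets).

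**Figure D5:**
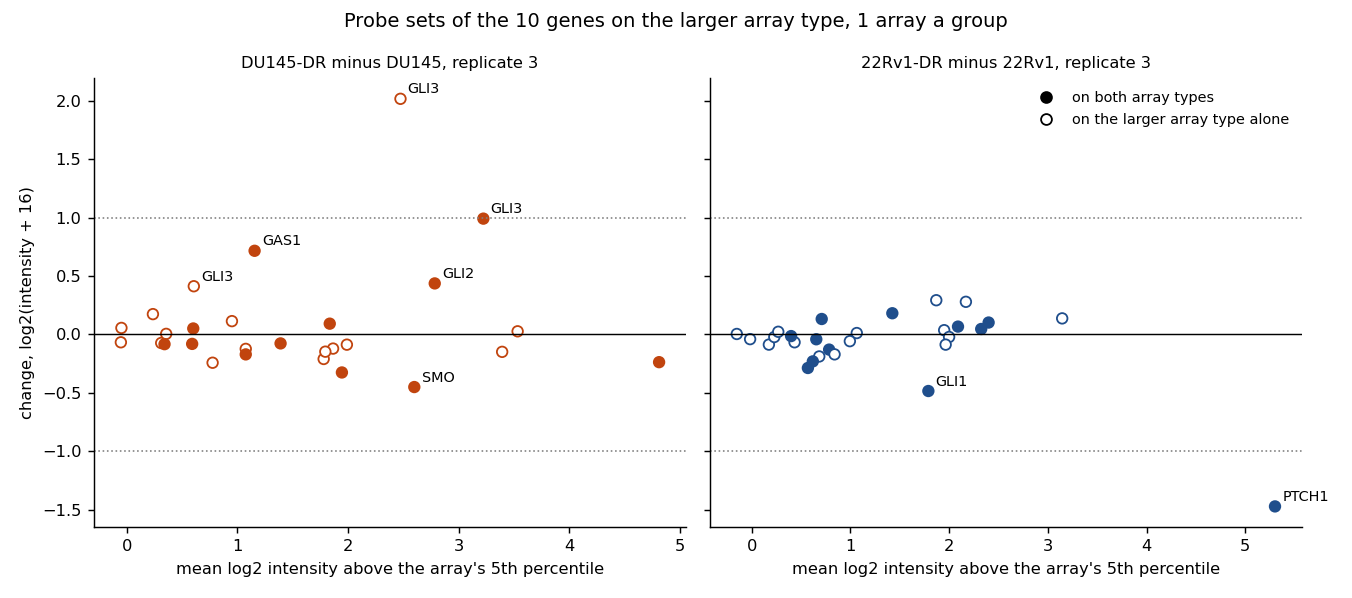
Each point is 1 of the 28 probe sets on the larger array type, with the resistant minus parental difference of replicate 3 in log2(intensity + 16) on the y axis and the mean log2 intensity above the array's 5th percentile on the x axis; dotted lines mark a difference of 1. GLI3 227376_at at 2.02 in the DU145 pair and PTCH1 209815_at at -1.47 in the 22Rv1 pair are the points past the dotted lines.

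The other genes of the pathway were taken from 5 lists of 75 genes, of which 54, with 101 probe sets, were on the smaller type. In DU145-DR 4 genes were called higher and 2 lower, through 9 called probe sets (8.91% of the 101), and the median change was 0.02. In 22Rv1-DR 2 were higher and 1 lower, through 4 probe sets (3.96%), with a median of 0.01. The percentages of all probe sets called, 6.87% and 3.22%, are the background to these. On the larger type 12 of 189 probe sets were up and 8 down by 1 log2 unit in the DU145 pair (10.6%), and 2 up and 3 down in the 22Rv1 pair (2.65%), where all probe sets gave 11.5% and 4.15%.

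Of 3 genes for ligand production and release, 1 rose in 22Rv1-DR and 0 passed in DU145-DR. SCUBE2, a secreted protein that helps release lipid-modified ligand from cells, had 1468 and 1938 in 22Rv1-DR, against 180 and 160 in 22Rv1, and 3468 against 89.3 in the third replicate. Its change was 3.20 ± 0.18 (limma adjusted p = 0.000365), the groups were far apart on both array types, and the call held in all 22 alternatives. In DU145-DR the SCUBE2 change was 0.05 (adjusted p = 1). Of 3 genes for reception at the cell surface, 0 passed in either line. The replicate block changed the count of neither list.

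Of 18 genes for transduction and GLI regulation, 3 rose and 1 fell in DU145-DR. IQCE, which anchors a SMO partner complex at the base of the cilium, had 413 and 393 in DU145-DR, against 174 and 130 in DU145 (1.33 ± 0.17 on 204202_at, limma adjusted p = 0.00759), and the third pair gave 1.05. That call was lost when only the 4 arrays of the line were fitted (0.102), and a second IQCE probe set, 217124_at, had a change of -0.04 (adjusted p = 1). SAP18, a corepressor subunit that binds SUFU, had 904 and 843 in DU145-DR, against 340 and 440 in DU145 (1.14 ± 0.18 on 208741_at, adjusted p = 0.0137, and 0.0676 without DU145 replicate 1). The 208741_at call was also lost with the 4 arrays of the line only (limma adjusted p = 0.123) and over 12 arrays with the table as a block (0.181). A second SAP18 probe set, 208740_at, also passed, and 208742_s_at did not (0.54, adjusted p = 0.171). PRKACB, a catalytic subunit of protein kinase A, which marks GLI proteins for processing, had 1438 and 2369 in DU145-DR, against 523 and 734 in DU145 (1.55 ± 0.26 on 202741_at, adjusted p = 0.0178, and 0.0961 without DU145 replicate 1). The third pair gave 0.31. This PRKACB call was also lost with the 4 arrays of the line only (limma adjusted p = 0.146) and over 12 arrays with the table as a block (0.113). CSNK1A1, casein kinase 1 alpha, fell on 1 of its 7 probe sets, 208866_at, with 803 and 666 in DU145-DR against 1184 and 1596 in DU145 (-0.90 ± 0.20, adjusted p = 0.0432), a call lost without any 1 of the 8 arrays (0.0567 to 0.169). With the replicate block 7 of the 18 were higher and 3 lower in DU145-DR, each gene counted if any of its probe sets passed, through 22 of 48 probe sets (45.8%, where all probe sets gave 25.1%).

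In 22Rv1-DR 1 of these 18 genes rose, and with the replicate block 2 were higher and 2 lower, through 8 of 48 probe sets (16.7%, where all probe sets gave 16%). DYRK2, a kinase that phosphorylates GLI2, had 135 and 115 in 22Rv1-DR, against 58.5 and 61.8 in 22Rv1, on 202968_s_at (0.88 ± 0.16, limma adjusted p = 0.0341), and the third pair gave 0.37. The call was lost without each of the 4 arrays of the line (0.137 to 0.272), and the other 3 DYRK2 probe sets did not pass.

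Of 17 genes for transport in the cilium, where SMO and the GLI proteins meet, 1 rose in DU145-DR and 1 fell in 22Rv1-DR. IFT27, a small GTPase of the transport complex that carries cargo along the cilium, had 24.6 and 19.2 in 22Rv1-DR, against 249 and 249 in 22Rv1, on 205037_at, and 20.5 against 391 in the third replicate. The change was -2.81 ± 0.19 (limma adjusted p = 0.000730), with the 22Rv1-DR arrays near the 25th percentile and no overlap. A second IFT27 probe set, 213784_at, fell by 1.70 (adjusted p = 0.0114). IFT57, of the same complex, had 1380 and 1531 in DU145-DR, against 680 and 910 in DU145 (0.87 ± 0.18 on 218100_s_at, adjusted p = 0.0335), and 1.41 in the third pair. That call was lost without any 1 of 7 arrays (0.0600 to 0.127). With the replicate block 3 of the 17 were higher and 4 lower in DU145-DR (33.3% of 21 probe sets, where all gave 25.1%), and 3 higher and 1 lower in 22Rv1-DR (23.8%, where all gave 16%).

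Of 13 other genes described as GLI targets, 1 fell in DU145-DR and 0 passed in 22Rv1-DR. SFRP1, a secreted Wnt antagonist, had 92.4 and 136 in DU145-DR, against 251 and 315 in DU145, on 202036_s_at (-1.21 ± 0.21, limma adjusted p = 0.0193), and -1.09 in the third pair. A second SFRP1 probe set, 202037_s_at, fell by 1.76 (adjusted p = 0.0207). Without either DU145 array or either 22Rv1 array the adjusted p of 202036_s_at was 0.0522 to 0.0967. The median change over this list's 26 probe sets was 0.02 in DU145-DR and -0.02 in 22Rv1-DR. With the replicate block 2 of the 13 were higher and 2 lower in DU145-DR (26.9% of the 26 probe sets, where all gave 25.1%), and 0 higher and 1 lower in 22Rv1-DR (3.85%, where all gave 16%).

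The genes that tracked GLI3, PTCH1 and SMO most closely across the 8 smaller arrays, after each line's mean was taken off, are given as a description. For GLI3 they were RIPOR1 (Pearson r = 0.993), ITGB5 (0.970) and DUSP4 (0.959), out of 3522 probe sets at least as variable as GLI3. For PTCH1 they were MYRIP (0.989), VPS13A (0.958) and APOLD1 (0.955), out of 1610. For SMO they were LILRA1 (0.987), FECH (0.983) and GART (0.980), out of 12597. The 8 arrays share line, treatment and replicate number, so these values hold no separate evidence of a relation.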

How the data were processed

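The deposited tables give a linear intensity for each probe set, 1 table for 8 arrays and another for 4 of a larger array type. MAS5 and RMA are named per the submitters' processing notes; neither role nor version is stated. Probe sets with 1 gene symbol in the annotation were used, and those with several (1043 on the smaller type) or none (2108) were left out, as were 31 of Y-linked or X-inactivation genes. The 8 arrays went into 1 fit of log2(intensity + 16) in limma 3.58.1 (R 4.3.3), with 4 group means, no block and no filter, and 4 residual and 3.01 prior degrees of freedom; the number of arrays limits the precision. Adjusted p-values are two-sided, Benjamini-Hochberg, over 19033 probe sets. Replicate 3 gave differences with no test. Alternatives changed the scaling, the pseudocount, a filter on dim probe sets, the number of probe sets a gene, the arrays fitted, the block and the variance trend, and left out each array.

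Deviations of same-numbered arrays from their group means correlated across probe sets at 0.735 (DU145-DR and DU145) and 0.785 (22Rv1-DR and 22Rv1), and at 0.0668 to 0.0984 across lines. With 2 numbers on this type, the numbers were taken as pairs within a line from this check alone, since the labels name no shared day or culture.

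The members and lists were chosen with earlier results of these data known. Named are all probe sets of the 10 genes; of the other lists up to 4 genes a line past the threshold, smallest adjusted p first; for GLI3, PTCH1 and SMO the 3 genes with the highest correlation; and the cell type markers.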

Additional observations from a re-analysis of the deposited data

Results flagged for a closer look

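In the unblocked fit the change of GLI3 205201_at differed between the lines. The change in 22Rv1-DR minus that in DU145-DR was -1.43 ± 0.23 (limma adjusted p = 0.0194), from 0.80 in DU145-DR and -0.63 in 22Rv1-DR. The third pair had 0.99 in DU145-DR and 0.05 in 22Rv1-DR, so there the 22Rv1 pair had no fall.

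GAS1 204457_s_at was higher in every DU145-DR replicate and lower in every 22Rv1-DR replicate than in its parental partner. The difference of the changes was -1.14 ± 0.54 and did not pass (limma adjusted p = 0.366, and 0.0190 to 0.746 over 19 alternatives). Without DU145-DR replicate 1 it was -0.51 (0.456), and without DU145-DR replicate 2 it was -1.77 (0.0190). Its sign was the same in these alternatives. This probe set stood at the percentiles 5.53 to 41.1 on the smaller arrays, and the other GAS1 probe sets did not move alike.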

How the results depend on the processing

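Over 22 alternatives, 699 values of the 12 probe sets were recomputed: 671 kept their direction and their side of the threshold, or were below it in both fits, 17 lost a call, 11 gained one and 0 called changes turned sign, while 56 values below the threshold did. The 12-array fits with a line-and-table block or a replicate block were chosen after seeing the data. In DU145-DR 0 of the 12 (1 in the reported fit) were called with a pseudocount of 1, with the 4 arrays of the line only, with the table as a block and with an intensity trend, 2 with the replicate block, and 0 to 2 with 1 array left out. In 22Rv1-DR 1 was called (0 reported) with the 4 arrays only, with a line-and-table block and with 12 arrays and the replicate block, and 3 with the replicate block. In the difference 0 (1 reported) were called with the table as a block, 2 with the replicate block on 8 or 12 arrays, and 0 to 2 with 1 array left out. Of all probe sets, calls in DU145-DR (1308 reported) were 102 with the 4 arrays only, 589 with the table, 2699 with line and table, 3981 with 12 arrays and the replicate block and 4785 with the replicate block, and 507 to 1665 with 1 array left out. Calls in 22Rv1-DR (613 reported) were 1283, 279, 742, 1209 and 3050 in that order, and 185 to 920. Calls in the difference (917 reported), which the 4 arrays of a line cannot give, were 328, 1653, 2653 and 4317, and 265 to 1348. The cause was not tested. Beyond the calls named above for PTCH1 and GLI3, the replicate block changed no call of the 12. GLI3 205201_at was called in DU145-DR in 11 of 22 alternatives (adjusted p 0.00820 to 0.350) and in the difference in 15 of 21. Quantile normalization or a shift to 1 median moved the median of all probe sets by at most 0.06. Probe sets under the 25th percentile carry little signal over background, so a change there is limited by the floor.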
